A study of Mus musculus with 6 samples.

Results

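Glycolysis turns glucose into pyruvate and lactate, and 10 genes of this route were followed through the series by gene symbol: Slc2a1, Hk2, Pfkp, Aldoa, Tpi1, Gapdh, Pgk1, Eno1, Pkm and Ldha. They are 10 of the 24421 genes in the count table, and each had a row there. All 10 are annotated as protein-coding in GENCODE M21 (mm10), where Gapdh (ENSMUSG00000057666) spans chr6:125161715-125166467 on the minus strand. They were named as a list, with earlier results of these data known, to see whether Gapdh, the gene to which the study scales its RT-qPCR, moved alone or with its pathway. RNA-seq was made from BECs (blood endothelial cells) and LECs (lymphatic endothelial cells) of mouse. Cont BECs came from E15.5 embryo skin of Tie2-Cre(-) animals and cKO BECs from Tie2-Cre(+) animals, both homozygous for the floxed allele Dot1l 2f/2f, although the sample labels call the control wild type. The skin cells were collected with antibodies as the F4/80-, CD45- and Lyve1- fraction, and a figure legend of the paper also gives them as CD31+. RNA of 2 to 3 embryos was pooled per library. For the overexpression (OE), a yolk sac BEC line (CRL-2581) and dermal LECs (C57-6064L) in culture received a lentivirus that directs dCas9-VP64, an activator, to the Dot1l promoter, and their controls received empty lentivirus. Sorted EGFP+ cells of 2 to 3 flasks made each of these libraries. Tie2-Cre is active in endothelium and also in part of the blood lineage.

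In endothelial cells most ATP is known to come from glycolysis, even where oxygen is at hand. Glucose enters through transporters such as Slc2a1, is phosphorylated by hexokinase and is committed to the pathway by phosphofructokinase. Aldolase, triosephosphate isomerase, Gapdh, phosphoglycerate kinase, enolase and pyruvate kinase then carry the carbon to pyruvate, and lactate dehydrogenase turns pyruvate into lactate. Many of these genes are known targets of the hypoxia-inducible factors HIF-1 and HIF-2, which bind the core letters ACGTG or GCGTG. Gapdh is also widely used as a reference in RT-qPCR because its transcript is abundant.

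The stretches of 160 bases before the transcription start of Gapdh, Pgk1, Ldha and Slc2a1 are shown as examples, chosen because they hold the letters ACGTG or GCGTG and belong to genes that were higher in the cKO-labelled library. Hk2 also met both conditions, with 2 matches in its promoter window of 300 bases, and is not shown. Aldoa, Pkm and Tpi1 were higher in that library too and are not shown. Pfkp held 4 matches in its window and had a log2 ratio of only 0.19 there. Whether the letters bear on the ratios was not tested. The sequences shown are from RefSeq (GRCm38.p6, the mm10 assembly) and are written 5′ to 3′ on the strand of the gene. ACGTG or GCGTG on either strand (CACGT or CACGC when read on the other) is in capitals.
Gapdh, chr6:125165774-125165933, minus strand: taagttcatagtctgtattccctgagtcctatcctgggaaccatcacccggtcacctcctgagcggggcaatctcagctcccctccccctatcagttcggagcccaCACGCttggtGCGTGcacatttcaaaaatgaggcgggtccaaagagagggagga
Pgk1, chrX:106186940-106187099, plus strand: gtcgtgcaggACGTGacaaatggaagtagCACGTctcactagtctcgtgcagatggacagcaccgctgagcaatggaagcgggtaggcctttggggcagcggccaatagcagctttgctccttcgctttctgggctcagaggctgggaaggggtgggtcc
Ldha, chr7:46845644-46845803, plus strand: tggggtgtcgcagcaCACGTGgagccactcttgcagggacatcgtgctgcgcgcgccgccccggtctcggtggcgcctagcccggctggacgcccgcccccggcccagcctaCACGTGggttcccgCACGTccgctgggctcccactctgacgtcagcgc
Slc2a1, chr4:119108585-119108744, plus strand: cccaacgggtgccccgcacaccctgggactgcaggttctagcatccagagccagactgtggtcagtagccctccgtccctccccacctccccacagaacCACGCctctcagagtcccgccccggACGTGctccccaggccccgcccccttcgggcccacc
In Ldha the letters overlap within CACGTG, which is also the E-box bound by Myc and other factors and was found in 7.24% of all promoter windows. Over the whole RefSeq promoter window of 300 bases, 7 of the 10 genes held at least 1 match, and the median gene of the 10 held 2. Of 27025 genes with such a window, 43.8% held at least 1 match, so the letters are common. Aldoa, Pkm and Tpi1 had none in the first window listed for them, which says only that these letters are not in that window.

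Total counts ranged from 8863349 reads in Cont BECs of the skin to 31032461 reads in OE-LECs. With 1 library per condition there was no replicate spread to test against, and every ratio below sets 1 library against another. In bulk RNA, fewer cells of a type and less RNA per cell cannot be told apart. Levels are given as CPM, the reads of a gene per 1000000 reads of its library, with exact 95% Poisson intervals. PCR copies were not marked with molecular identifiers, so intervals and floors here cover counting error only. The floor was set at 3 reads, or 0.0967 to 0.338 CPM. Dot1l itself had 86.0 CPM in Cont BECs of the skin (762 reads) and 85.2 CPM in the cKO library (944 reads). Its count over the whole gene thus does not separate these libraries. The latter is called the library labelled cKO, or the cKO-labelled library. The paper gives RT-qPCR of Dot1l, scaled to Gapdh, as its check of the knockout in cKO BECs. That assay reads a stretch between primers and is a different measure from the count over the whole gene. Dot1l had 112 and 302 CPM in cultured Cont and OE-BECs, and 95.3 and 217 in Cont and OE-LECs. All 12 blood endothelial marker genes had reads in every library, with a summed level of 4091 to 9847 CPM. Of 7 lymphatic markers, Prox1, Pdpn, Ccl21a and Reln were at or under the floor in all 4 cultured libraries, the LECs included, and Mmrn1 in both LEC libraries, while the sorted skin BECs held 1304 reads of Prox1 in the control and 883 in the cKO-labelled library.

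Slc2a1, the glucose transporter Glut1 of the plasma membrane, had 86.5 CPM in Cont BECs of the skin, 151 in the cKO-labelled library, 75.4 and 71.8 in cultured Cont and OE-BECs, and 96.3 and 97.9 in Cont and OE-LECs. The cKO-labelled library was highest, and neither overexpressing library separated from its own control beyond the counting intervals. Hk2, the inducible hexokinase, had 38.6 CPM in Cont BECs of the skin, 112 in the cKO-labelled library, 43.0 and 74.8 in cultured Cont and OE-BECs, and 40.3 and 48.4 in Cont and OE-LECs. The intervals of the 3 controls overlapped for Hk2, and the cKO-labelled library and OE-BECs lay above them. Pfkp, the platelet-type phosphofructokinase, had 109 CPM in Cont BECs of the skin, 129 in the cKO-labelled library, 36.6 and 50.7 in cultured Cont and OE-BECs, and 55.8 and 69.9 in Cont and OE-LECs. It was the only one of the 10 genes whose 2 skin libraries both lay above all 4 cultured libraries.

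Aldoa, the aldolase that splits fructose bisphosphate, had 289 CPM in Cont BECs of the skin, 624 in the cKO-labelled library, 727 and 812 in cultured Cont and OE-BECs, and 1095 and 1201 in Cont and OE-LECs. No neighbours in this order overlapped in their counting intervals. Tpi1, which interconverts the triose phosphates, had 106 CPM in Cont BECs of the skin, 204 in the cKO-labelled library, 140.4 and 168 in cultured Cont and OE-BECs, and 374 and 394 in Cont and OE-LECs. The skin control was lowest and the LECs were highest, as for Aldoa.

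Gapdh, which oxidizes glyceraldehyde 3-phosphate, had 163 CPM in Cont BECs of the skin (interval 155 to 172), 288 in the cKO-labelled library (278 to 298), 874 and 854 in cultured Cont and OE-BECs, and 1674 and 1579.9 in Cont and OE-LECs. The highest library was 10.3-fold above the lowest, the widest range of the 10 genes in CPM, and only cultured Cont BECs and OE-BECs had overlapping intervals. Pgk1, the next enzyme, which makes ATP, had 91.2 CPM in Cont BECs of the skin, 161 in the cKO-labelled library, 353 and 316 in cultured Cont and OE-BECs, and 597 and 626 in Cont and OE-LECs. It followed the order of Gapdh apart from the order within the LECs, with a range of 6.87-fold. Pkm, pyruvate kinase, had 519.6 CPM in Cont BECs of the skin, 887 in the cKO-labelled library, 1150.1 and 1215 in cultured Cont and OE-BECs, and 1809 and 1712 in Cont and OE-LECs. Ldha, which makes lactate, had 342 CPM in Cont BECs of the skin, 584 in the cKO-labelled library, 326 and 422 in cultured Cont and OE-BECs, and 697 and 862 in Cont and OE-LECs. For Ldha the skin and the cultured BEC controls overlapped in their intervals, and the cKO-labelled library lay above OE-BECs.

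**Figure D1:**
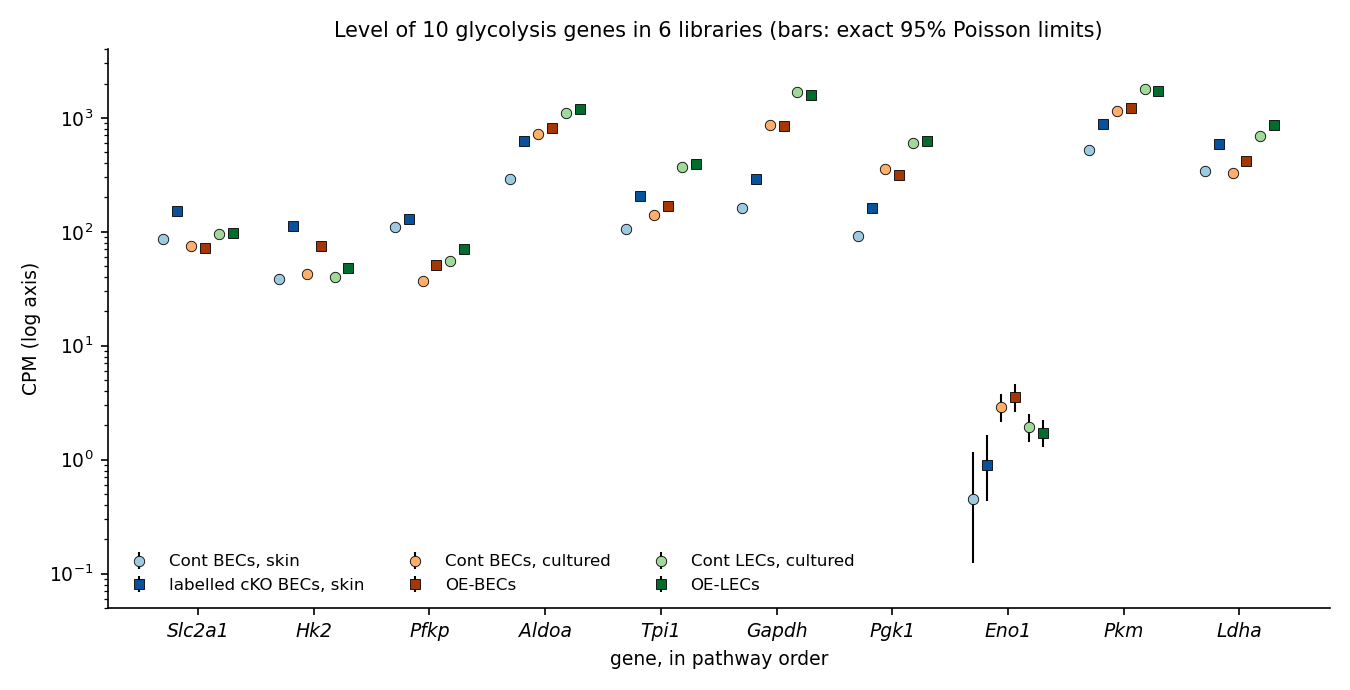
CPM (log axis) of the 10 glycolysis genes in pathway order, with circles for the controls, squares for the changed libraries and bars for exact 95% Poisson intervals, which are mostly smaller than the symbols. Gapdh and Pgk1 step up from the skin to the cultured BECs to the LECs, Hk2 and Slc2a1 are highest in the cKO-labelled library, and Eno1 lies far below the others, at 0.451 to 3.52 CPM.

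Eno1, the main enolase, had only 4 reads in Cont BECs of the skin, 10 in the cKO-labelled library, 51 and 49 in cultured Cont and OE-BECs, and 50 and 53 in Cont and OE-LECs. Every pair of neighbours in its order overlapped in the counting intervals. Of the windows of 75 bases in the longest coding transcript of Eno1, 65.4% were also found in transcripts of other genes, 64.2% in Eno1b alone, a near-identical copy. Eno1b had 81 reads in Cont BECs of the skin, 14 in the cKO-labelled library, 452 and 603 in cultured Cont and OE-BECs, and 2071 and 2969 in Cont and OE-LECs. Eno1b had a log2 ratio of -2.91 in the skin pair, while that of Eno1 was 0.94 with an interval of -0.85 to 3.07 that includes 0, and the level of enolase cannot be read from either row. Shared windows were also 80.3% for Gapdh (with 121 other annotated genes) and 67.5% for Pgk1, against 19.6% for Pkm, 16.6% for Pfkp (all with Pitrm1), 5.23% for Ldha, and at most 2.48% for Aldoa, Tpi1, Hk2 and Slc2a1. How the authors counted reads that match several places is not given in the sources used here, so the levels of Gapdh and Pgk1 are uncertain beside those of other genes. Per length, as CPM per 1000 bases of exon, Gapdh had 109 and Pkm 200 in Cont BECs of the skin, and 1120.0 and 696 in Cont LECs. Ldha had 181 and Hk2 6.87 on this scale in Cont BECs of the skin.

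In the skin, Gapdh was higher in the cKO-labelled library, and it did not move alone. Of the 10 genes, 9 had at least 100 normalized counts in both libraries (median of ratios normalization on the pair), all 9 were higher in the cKO-labelled library, and 8 were at least 1.5-fold higher. Among the 10212 genes that reached 100 normalized counts in either library, 45.7% were higher by any amount. At least 1.5-fold higher were 8.88%, and at least 1.5-fold lower were 7.69%. None of the 10 passed the 3-fold rule of the study, which called 5.17% of 15993 genes higher. The median log2 ratio of the 10 genes was 0.76, and that of all tested genes was -0.04.

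Gapdh had 1649 normalized counts in Cont BECs of the skin and 2797 in the cKO-labelled library, a log2 ratio of 0.76 (exact Clopper-Pearson 95% interval on reads 0.67 to 0.85). This ratio lay above those of 94.3% of the tested genes. It ranked sixth of the 10, and it differed by only -0.004 on the log2 scale from the median of the other 9 genes, a difference that no scaling of a library can alter. Counted against the summed reads of the other 9 (14031 in Cont and 31630 in the cKO-labelled library), Gapdh was 10.3% of that sum in Cont and 10.1% in the cKO-labelled library, a log2 ratio of -0.03 (interval -0.13 to 0.06). The plot of log2 ratios shows Gapdh inside the narrow band of Slc2a1, Pgk1, Pkm and Ldha.

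Hk2 had the largest ratio, with 390 and 1089 normalized counts in Cont and the cKO-labelled library (log2 ratio 1.48, interval 1.31 to 1.66, 2.79-fold). Aldoa followed with 2922 and 6066 normalized counts (log2 ratio 1.05, interval 0.99 to 1.12), and Tpi1 with 1073 and 1984 (log2 ratio 0.89, interval 0.777 to 0.999). The lower steps of the route moved by similar amounts. Pgk1 (921 and 1566 normalized counts), Pkm (5249 and 8627) and Ldha (3459 and 5680.2) had log2 ratios of 0.77, 0.72 and 0.72, and Slc2a1 (874 and 1468) had 0.75. Pfkp was the exception, with 1102 and 1259 normalized counts and a log2 ratio of only 0.19 (interval 0.07 to 0.31), while its liver-type paralog Pfkl had 742 and 1326 (log2 ratio 0.84, interval 0.70 to 0.97). The 10 genes together took 0.175% of the reads in Cont and 0.314% in the cKO-labelled library.

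**Figure D2:**
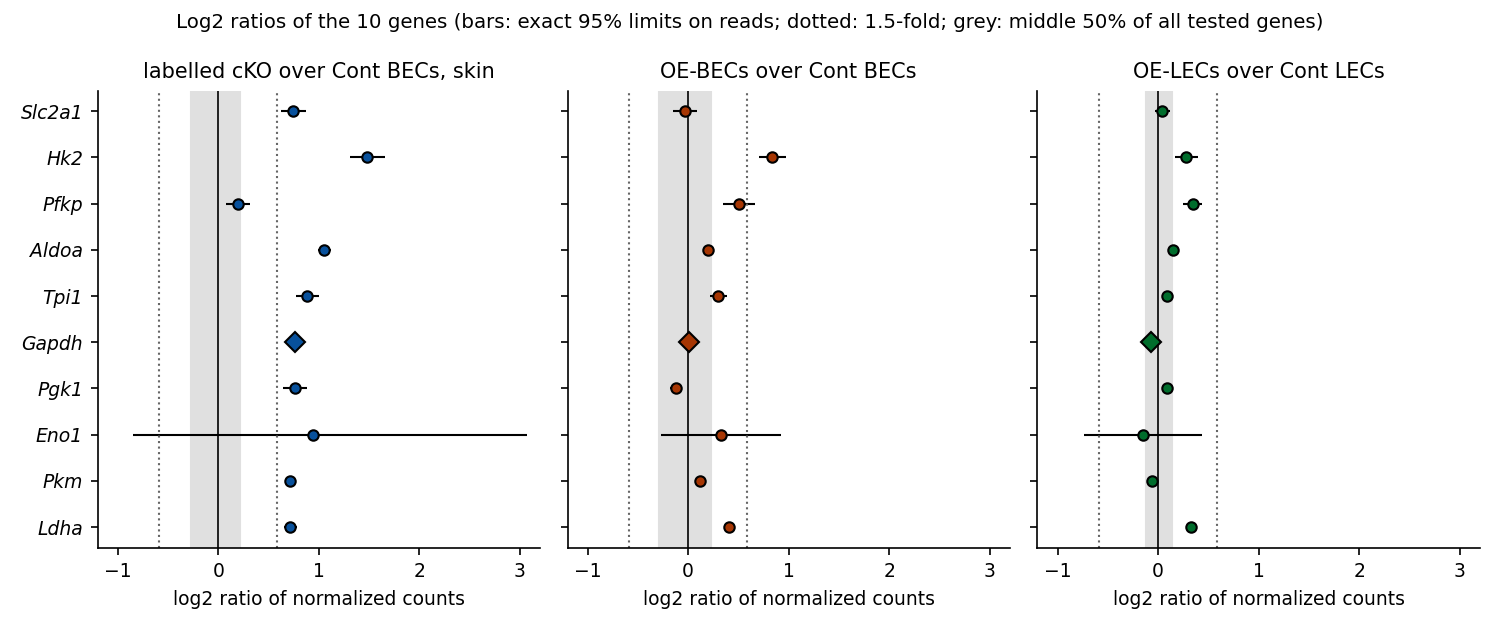
Log2 ratios of normalized counts, changed over control, for the 10 genes in the 3 comparisons, with bars for exact 95% intervals on reads, dotted lines at 1.5-fold, grey for the middle 50% of all tested genes and a diamond for Gapdh. Of the 9 genes with at least 100 normalized counts, 8 lie past 1.5-fold in the skin pair, only Hk2 does in OE-BECs and none does in OE-LECs, and Eno1, with 4 to 53 reads, has the widest bars.

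**Figure D3:**
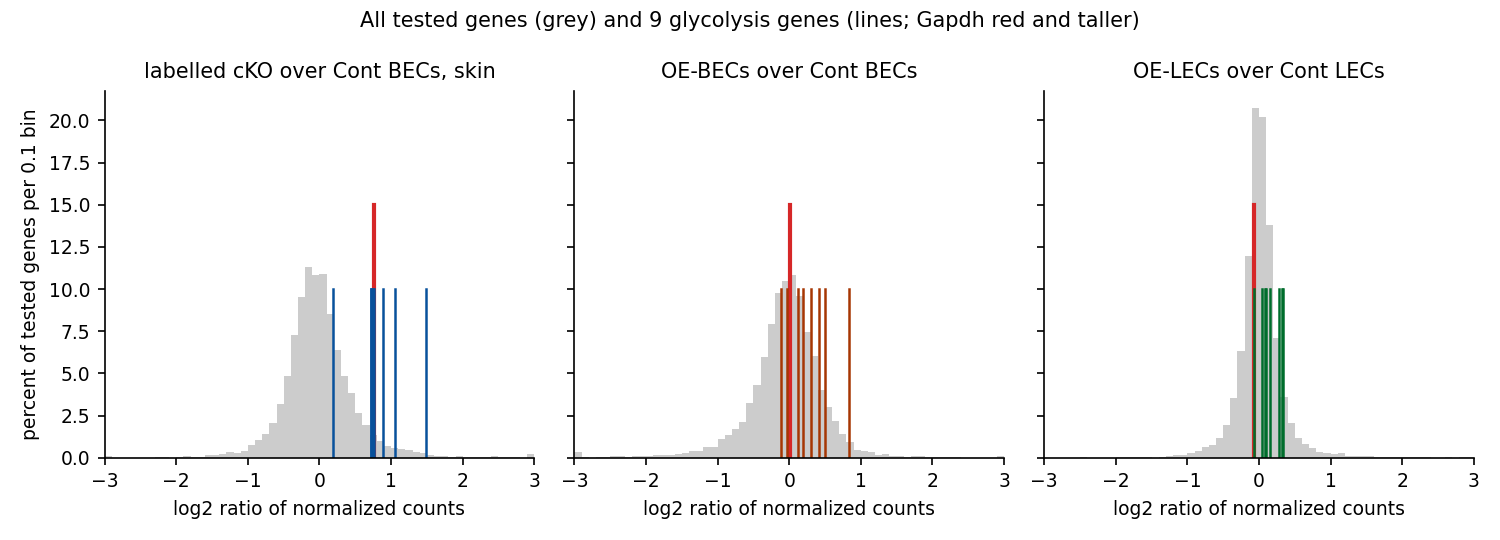
Percent of all genes with at least 100 normalized counts in bins of 0.1 of the log2 ratio (grey, genes beyond 3 in either direction gathered in the end bins), with a line at each of the 9 glycolysis genes measured above that minimum and a taller red line for Gapdh. In the skin pair the lines lie in the upper tail apart from Pfkp, and in the other 2 pairs most lie in the middle, with Hk2 and Pfkp in OE-BECs and Pfkp and Ldha in OE-LECs above 90.4% or more of the tested genes.

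Among 27 further genes of glycolysis, 15 reached 100 normalized counts in at least 1 skin library, with a median log2 ratio of 0.44. Of these 15, 6 were at least 1.5-fold higher in the cKO-labelled library and 1 was lower. The shares over all tested genes were 8.88% and 7.69%. Slc16a3 (Mct4), which exports lactate, had 80 reads in Cont and 566 in the cKO-labelled library, a log2 ratio of 2.44 (interval 2.10 to 2.80), and passed the minimum only in the cKO-labelled library. Slc2a3 (Glut3), a high-affinity glucose transporter, had 158 and 653 reads (log2 ratio 1.67, interval 1.42 to 1.93), and Pfkfb3, which makes the activator of phosphofructokinase, had 310 and 926 reads (2.30-fold, log2 interval 1.01 to 1.39). Slc16a3 and Slc2a3 also passed the 3-fold rule. Ldhb, the subunit that favours pyruvate, went the other way with 115 and 80 reads (log2 ratio -0.90, interval -1.33 to -0.48). Gpi1 and Pgam1, the isomerase and mutase between the 10 genes, had log2 ratios of 0.44 and 0.70, and Hk1, the hexokinase of most cells, 0.42.

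None of the 16 genes of the TCA cycle was past 1.5-fold in either direction in the skin pair, and their median log2 ratio was -0.02 (range -0.41 to 0.38). Of 14 genes that bring pyruvate to the mitochondria or control that step, 11 had at least 100 normalized counts and only Pdk1 was past 1.5-fold. Pdk1, the kinase that shuts pyruvate dehydrogenase and a known HIF-1 target, had 507 reads in Cont and 1377 in the cKO-labelled library (log2 ratio 1.06, interval 0.92 to 1.21). In the pentose phosphate pathway, G6pdx and Pgd, its 2 NADPH-making dehydrogenases, were higher with log2 ratios of 0.66 and 0.78, and the median of the 7 genes was 0.33.

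Of 20 genes known to be hypoxia-inducible and not part of glycolysis, 19 had at least 100 normalized counts, 15 were higher and 7 were at least 1.5-fold higher in the cKO-labelled library, and 0 were at least 1.5-fold lower. Their median log2 ratio was 0.51. Among all tested genes, 45.7% were higher by any amount, 8.88% at least 1.5-fold higher and 7.69% at least 1.5-fold lower. Adm, the vasodilator adrenomedullin, had 63 reads in Cont and 499 in the cKO-labelled library (log2 ratio 2.61, 6.10-fold), passing the minimum only in the latter. Bnip3, a mitophagy receptor, had 178 and 791 reads (log2 ratio 1.77, interval 1.54 to 2.02), and P4ha2, a collagen prolyl hydroxylase, 121 and 419 reads (log2 ratio 1.41, interval 1.12 to 1.72). Ak4 and Vegfa had log2 ratios of 1.12 and 0.84. Hif1a itself had 3890 and 4518 reads (log2 ratio -0.16), and Epas1, which encodes HIF-2 alpha, 2892 and 2338 reads (log2 ratio -0.68, interval -0.76 to -0.61).

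**Figure D4:**
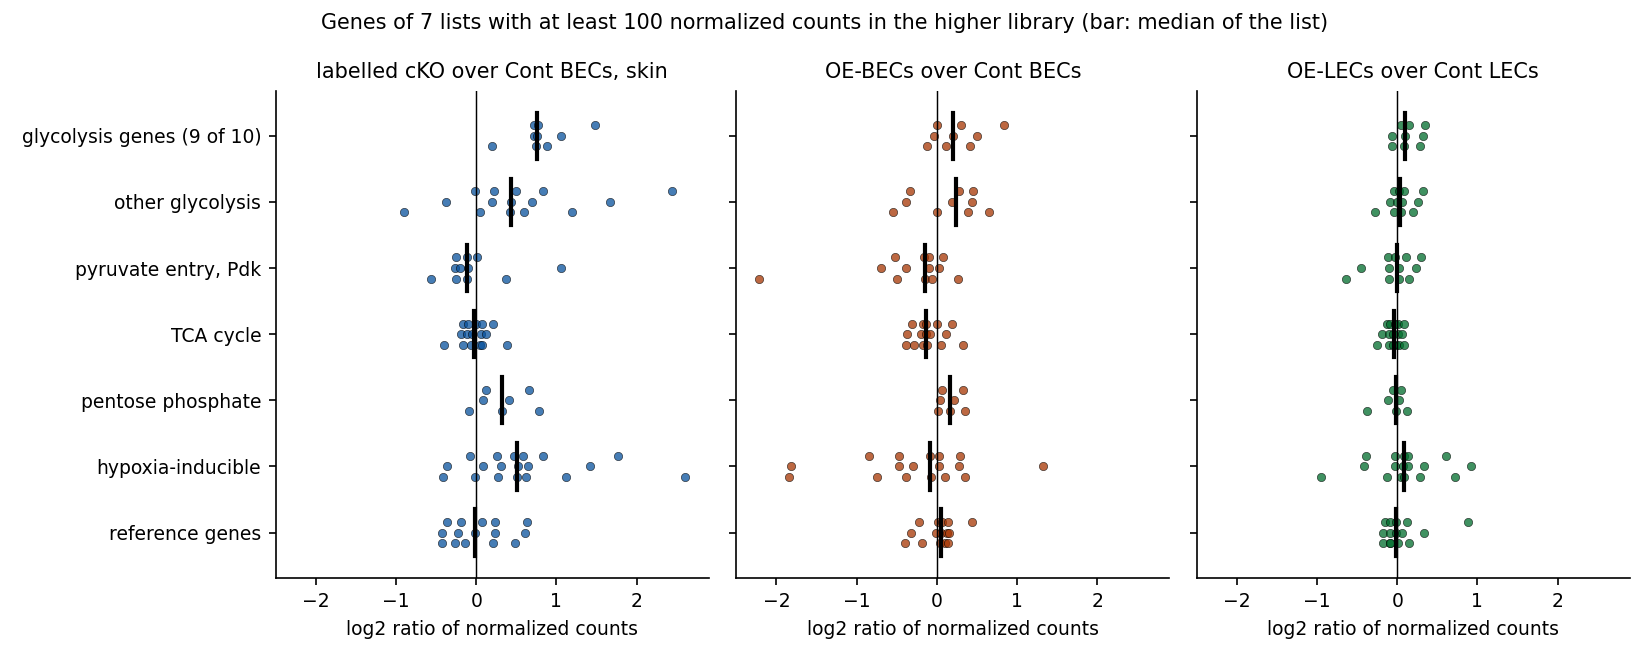
Log2 ratios, changed over control, of single genes that reached 100 normalized counts in either library (points) and the median of each list (bar), for glycolysis, its branches, hypoxia-inducible genes and reference genes in the 3 comparisons. In the skin pair both glycolysis lists and the hypoxia-inducible list lie to the right with medians of 0.76, 0.44 and 0.51, while TCA cycle and reference genes centre near 0.

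Markers of other cell types also differed in the skin pair. Of all tested genes in this pair, 45.7% were higher by any amount, 8.88% at least 1.5-fold higher and 7.69% at least 1.5-fold lower. Of 12 macrophage genes, 11 were higher and 7 at least 1.5-fold higher in the cKO-labelled library, and their summed level was 3986 CPM in Cont and 6213 in the cKO-labelled library. Of 12 blood endothelial genes, 11 were lower and 9 at least 1.5-fold lower, with summed levels of 6561 and 4091 CPM. The sum of 12 keratinocyte genes went from 269 to 429 CPM, that of 8 erythroid genes from 22.2 to 41.7 and that of 12 skeletal muscle genes from 45.9 to 35.5, while 9 fibroblast genes (2872 and 2107 CPM) and 7 pericyte genes (836 and 667) were lower in sum. The 7 lymphatic genes summed to 2788 and 3246 CPM, but 4 of the 6 measured were lower, among them Prox1 and Reln (log2 ratios -0.94 and -0.87). Lyve1, whose protein was selected against in the sort, was higher with 9105 and 19959 reads. Of these lists only Ccl21a among the lymphatic genes and Hba-a1, Hba-a2, Hbb-bs, Hbb-bt and Hbb-bh1 among the erythroid genes were at or under the floor in both skin libraries. The part of these differences in the glycolysis result was not tested. Hk3, the hexokinase of myeloid cells, had 373 and 732 reads (log2 ratio 0.59).

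Because RT-qPCR in the study was scaled to Gapdh, Gapdh was set beside 15 other genes used as references. All 15 had in the skin a lower log2 ratio than Gapdh. Their median was -0.02, against 0.76 for Gapdh, and they ranged from -0.42 (Ywhaz) to 0.63 (Rps18). Rps18 (0.63) came closest to Gapdh and Gusb had 0.49, while Ppia had -0.02, Hprt -0.14, Eef1a1 0.07, Actb 0.23 and Rpl13a 0.21. Tbp (-0.23), Rplp0 (-0.27), Tfrc (-0.19), Polr2a (-0.36) and B2m (-0.42) lay on the other side of 0. The reads of Dot1l per read of Gapdh in the cKO-labelled library were 0.562 of those in Cont (interval 0.502 to 0.630). Scaled to the other 15 genes the same quantity ran from 0.616 (Rps18) to 1.28 (Ywhaz) with a median of 0.968, and 8 of the 15 gave a value below 1. Gapdh thus gave the lowest Dot1l value of the 16 in these libraries. These values come from reads over the whole gene and not from the primer stretch of the RT-qPCR. The part of Gapdh in the RT-qPCR result of the paper was not tested.

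**Figure D5:**
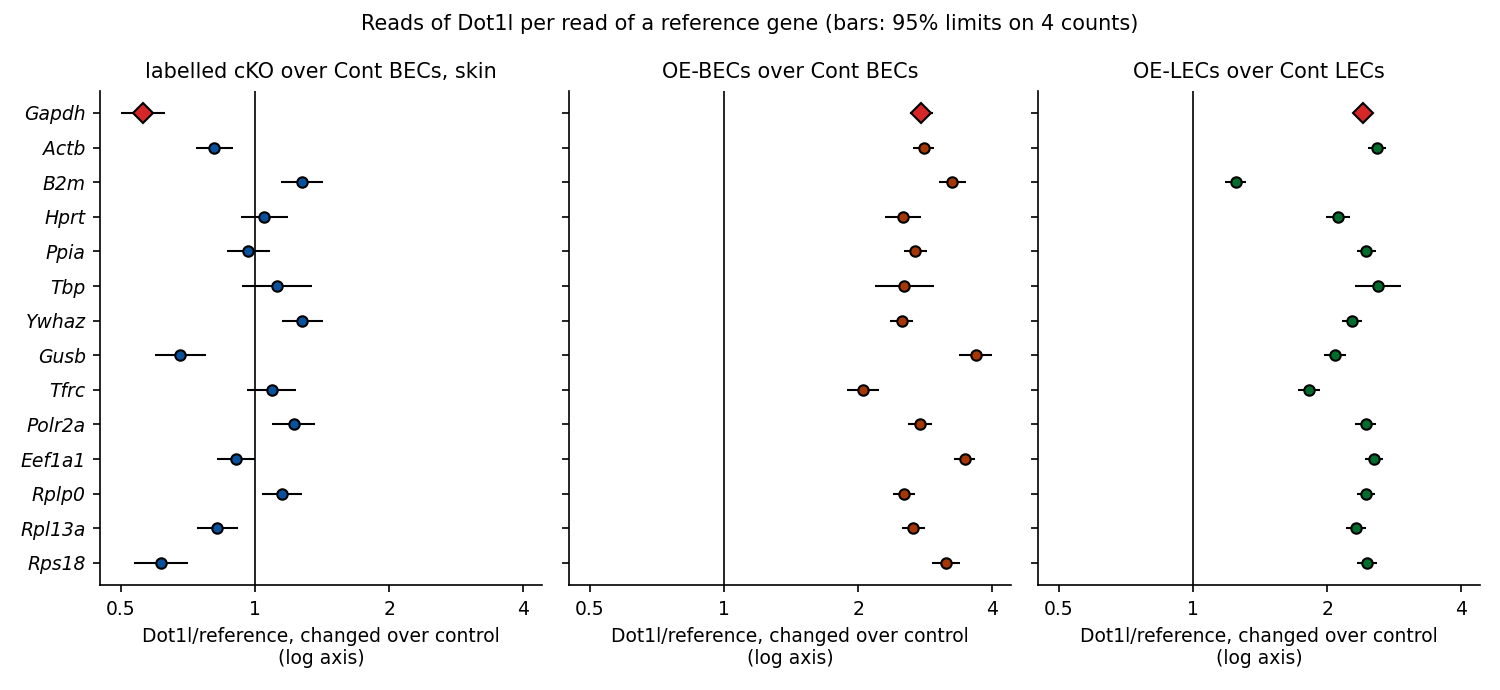
Reads of Dot1l per read of Gapdh and of 13 of the 15 other reference genes, changed over control (log axis), with bars for 95% intervals on the 4 counts and a red diamond for Gapdh. In the skin pair the values straddle 1 and Gapdh gives the lowest, 0.562, while in both overexpression pairs every gene shown gives a value above 1.

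In OE-BECs Gapdh did not separate from its control, with 13529 normalized counts before and 13585 after overexpression, a log2 ratio of 0.01 (interval -0.03 to 0.04) that ran from -0.03 to 0.05 over the scalings tried. Of the 10 genes, 9 again had at least 100 normalized counts, 1 was at least 1.5-fold higher and 0 were lower, where 7.25% of 9867 tested genes were at least 1.5-fold higher and 11% were lower. The 1 gene was Hk2, with 666 and 1189.9 normalized counts (log2 ratio 0.84, interval 0.70 to 0.97). None passed the 3-fold rule, which called 8.02% of 14792 genes higher and 5.27% lower. Pfkp (log2 ratio 0.51, interval 0.35 to 0.66), Ldha (0.41, interval 0.36 to 0.46) and Tpi1 (0.30, interval 0.22 to 0.38) were higher by less, Aldoa and Pkm had 0.20 and 0.12, and Pgk1 was lower at -0.12 (interval -0.18 to -0.07). Slc2a1 had a log2 ratio of -0.03 (interval -0.15 to 0.09), which turned to 0.008 with total counts without Rn45s.

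Relative to its pathway, Gapdh was lower in OE-BECs. The median log2 ratio of the other 9 genes was 0.30, so Gapdh lay 0.30 below it, and against the summed reads of the other 9 it went from 30.6% to 27.2% (log2 ratio -0.17, interval -0.21 to -0.13). The median of the 10 genes was 0.25, beside -0.02 for all tested genes. The reference genes had a median of 0.05 in this pair, with 10 of the 15 above Gapdh, and Dot1l was 2.77 times its control when scaled to Gapdh and 2.05 to 3.67 times when scaled to the others. Ribosomal Rn45s took 5.91% of the reads in cultured Cont BECs and 10.9% in OE-BECs.

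Around the 10 genes in OE-BECs, Pfkfb3 was the 1 gene of 10 measured in the further glycolysis list that was past 1.5-fold, with 615 and 739 reads (log2 ratio 0.65, interval 0.49 to 0.80). Eno1b had 452 and 603 reads (log2 ratio 0.80). Of 13 pyruvate genes measured, 0 were at least 1.5-fold higher and 2 were lower, where 11% of all tested genes were lower. Both encode pyruvate dehydrogenase kinases. Pdk1 had 821 and 388 reads (log2 ratio -0.70, interval -0.88 to -0.52). Pdk2, which reached the minimum only in the control, had 127 and 21 reads (log2 ratio -2.21, interval -2.95 to -1.54). Of 17 hypoxia-inducible genes measured, 1 was at least 1.5-fold higher and 4 were lower, with a median of -0.08. Adm was higher (372 and 713 reads, log2 ratio 1.32), and Ddit4 and Ndrg1 were lower, with log2 ratios of -1.84 and -1.82. The TCA cycle had a median of -0.13 and the pentose phosphate genes one of 0.16, with no gene past 1.5-fold in either list. The sum of 12 blood endothelial genes was 9847 CPM in Cont and 6563 in OE-BECs, with the largest log2 ratios in Vwf and Flt1 (-2.18 and -2.14) and the largest loss of CPM in Cdh5 (3334 and 1916), and the part of this in the result was not tested. Lymphatic genes summed to 749 and 1159.7 CPM, and only 2 of them reached 100 normalized counts. Lyve1 was higher, with 10680 and 14786 reads (log2 ratio 0.85), and Flt4 was lower, with 2552 and 1369 reads (log2 ratio -0.52). Macrophage genes summed to 65.0 and 34.4 CPM, of which Cd68 alone was 61.8 and 32.2. Keratinocyte genes summed to 6.73 and 6.53 CPM, and fibroblast, pericyte, erythroid and muscle genes to no more than 6.17 CPM each.

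In OE-LECs the 10 genes differed least. None was past 1.5-fold, where 3.72% of 10503 tested genes were higher and 3.05% lower, and none passed the 3-fold rule, which called 2.77% of 13883 genes higher and 2.09% lower. Their median log2 ratio was 0.09, beside 0.01 for all tested genes. Gapdh had 47372 and 45257 normalized counts in Cont and OE-LECs, a log2 ratio of -0.07 (interval -0.08 to -0.05). Pfkp (0.34, interval 0.25 to 0.44), Ldha (0.32, interval 0.30 to 0.35) and Hk2 (0.28, interval 0.17 to 0.40) had the highest log2 ratios, Aldoa, Tpi1 and Pgk1 had 0.15, 0.09 and 0.09, and Slc2a1 had 0.04 (interval -0.03 to 0.12). Pkm lay with Gapdh at -0.06. Gapdh was 0.16 below the median of the other 9, and against their summed reads it went from 35.1% to 31.5% (log2 ratio -0.16, interval -0.18 to -0.13).

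Reference genes in OE-LECs had a median of -0.02, with 8 of 15 above Gapdh, and only B2m, the light chain of MHC class I, was past 1.5-fold (8116 and 17556 reads, log2 ratio 0.88). Dot1l was 2.41 times its control when scaled to Gapdh, 2.33 times by the median of the other 15, and 1.25 times when scaled to B2m. Of 12 further glycolysis genes measured, 0 were past 1.5-fold, and the TCA cycle (median -0.04) and pentose phosphate genes (median -0.01) had 0 as well. Among 17 hypoxia-inducible genes, Ak4 (53 and 118 reads), P4ha2 and Bnip3 were higher, with log2 ratios of 0.92, 0.72 and 0.61, and Ddit4 was lower at -0.95. Of 12 pyruvate genes measured, Pcx, the carboxylase that feeds oxaloacetate, was lower (588 and 445 reads, log2 ratio -0.63). Blood endothelial genes summed to 8522 and 7918 CPM. Of these 12 genes, 4 were at least 1.5-fold lower and 0 were higher, where 3.05% of all tested genes were lower. The 4 were Vwf, Cldn5, Flt1 and Tek, with log2 ratios of -1.89, -1.38, -1.12 and -0.64. Lymphatic genes summed to 2105 and 2093 CPM. Macrophage genes summed to 94.7 and 81.9 CPM, of which Cd68 alone was 93.2 and 80.2. Fibroblast genes summed to 8.12 and 20.5 CPM, of which Pdgfra alone was 7.01 and 19.3.

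The isozymes used for one step also differed between libraries. Hk2 made 21.8% of the pair Hk1 and Hk2 per length in Cont BECs of the skin (Wilson 95% interval 19.8 to 24.0) and 36.9% in the cKO-labelled library (35.2 to 38.5). In culture it made 13.6% in Cont BECs (12.8 to 14.6), 18.8% in OE-BECs (17.8 to 19.9), and 12.0% and 11.8% in Cont and OE-LECs. The skin and OE-BEC pairs thus leaned to Hk2 beyond counting error, and the LEC pair did not. Slc2a3 made 14.5% of the pair with Slc2a1 in Cont BECs of the skin and 24.3% in the cKO-labelled library, and it had 0 or 1 reads in each cultured library, at or under the floor. Ldhb made 5.22% of the pair with Ldha in Cont BECs of the skin (interval 4.37 to 6.22) and 1.76% in the cKO-labelled library (1.42 to 2.19), and had 0 to 2 reads in the cultured libraries. Slc16a3 made 13.4% of the pair with Slc16a1 in Cont BECs of the skin and 52.4% in the cKO-labelled library, where Slc16a1 had 585 and 449 normalized counts (log2 ratio -0.38, interval -0.56 to -0.20). In cultured Cont and OE-BECs it made 6.65% and 6.56%, and in the LECs at most 0.258%. Pfkp made 56.3% of the pair with Pfkl in Cont BECs of the skin and 45.2% in the cKO-labelled library, against 18.0% to 22.1% in culture. The muscle isozyme Pfkm had log2 ratios of -0.02 in the skin pair, -0.33 in OE-BECs and -0.28 in OE-LECs, and Eno2, the neuronal enolase, had 74 and 136 reads in the skin and at most 7 in any cultured library.

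Across the 6 libraries, the pattern of Gapdh was shared by some of its pathway only. On log2 normalized counts (factors from all 6 libraries, 1 added), Pearson's r to Gapdh was 0.997 for Pgk1, 0.984 for Pkm, 0.953 for Aldoa, 0.794 for Tpi1 and 0.608 for Ldha. It was -0.18 for Hk2, -0.28 for Slc2a1 and -0.77 for Pfkp. Of 10641 genes whose mean reached 100 normalized counts, 18.5% had r above 0.9, and in this measure the 2 skin libraries stand apart from the 4 cultured ones. The 5 genes most like Gapdh outside the 10 were Tmem134, Rpl13, Ttc21b, Sh3bp2 and Agpat1, with r from 0.997 to 0.999. Scaled in this way, cultured Cont BECs held 5.87 times and Cont LECs 10.3 times the Gapdh of the skin control, while Slc2a1 held 0.955 and 1.12 times and Hk2 1.22 and 1.05 times. Tissue, culture and library differ together in these ratios and cannot be told apart. Gapdh, Eno1 and Pgk1, the genes of the 10 with the most shared windows (80.3%, 65.4% and 67.5%), also had the widest CPM ranges. These were 10.3-fold, 7.79-fold and 6.87-fold, against at most 4.15-fold for the others. Whether reads that match several places were assigned alike in all libraries was not tested.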

How the data were processed

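Total RNA of BECs and LECs was made into ScriptSeq v2 libraries. The authors trimmed adapters with skewer, aligned the reads to mm10 with STAR, counted reads per gene symbol with VERSE and deposited raw counts, without normalization. No read-level step was repeated here. Of 24421 genes, 4473 had no read in any library. Positions and exon lengths came from GENCODE M21 (GRCm38, the build of mm10), promoter windows from RefSeq.

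Total counts were 8863349 to 31032461 per library, 1 library per condition, grouped by the sample titles. For each comparison, size factors by median of ratios (DESeq2 1.42.0, R 4.3.3) were taken from its own pair of libraries. Log2 ratios are changed over control, with exact Clopper-Pearson 95% intervals on the reads. Ratios of 4 counts have Woolf intervals. No p-value was computed. Genes counted as past 1.5-fold reached 100 normalized counts in either library of the pair. The study's rule is more than 3-fold with at least 5 (cKO) or 3 (OE) normalized counts. Shared windows are exact matches of 75 bases, on either strand, in GENCODE transcripts. The gene lists and the 10 genes were chosen with earlier results of these data known. Named genes were the 10, the reference genes, named paralogs, Dot1l, up to 5 genes past 1.5-fold per list and comparison, and the 5 most like Gapdh. Hk3, Slc16a1, Hif1a, Cdh5 and the genes under the floor or minimum were added after their values were seen. Some listed genes entered the counts and medians of their lists and are not reported here by name.

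Alternatives were total counts, edgeR 4.0.16 TMM factors, factors over all 6 libraries, total counts without Rn45s, folds of 1.2 and 2, no minimum or 1000, a pseudocount of 1, and other sets of genes. The steps were tested on simulated counts. Python 3.11.15, numpy 2.4.6, scipy 1.17.1 and pandas 2.3.3 were used.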

Additional observations from a re-analysis of the deposited data

Results flagged for a closer look

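Pgk1 and Pkm had opposite directions in the 2 overexpression pairs, each with an interval that leaves out 0. Pgk1 was lower in OE-BECs and higher in OE-LECs, and its log2 ratio in OE-BECs minus that in OE-LECs was -0.21 (95% interval on the 4 counts -0.27 to -0.14). Pkm was higher in OE-BECs and lower in OE-LECs, with a difference of 0.18 (interval 0.15 to 0.21). These intervals cover counting error only, each pair has 1 library per condition, and the difference between the cell types was not tested.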

How the results depend on the processing

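Each pair has 1 library per condition, so replicate spread, which would include differences between embryos or flasks, is unknown, and the intervals cover counting error only. No paired analysis was possible because each group has 1 library, and for the same reason no replicate could be left out. The median of the 10 genes stayed above 0 in each pair under every scaling, pseudocount and set of genes tried. Gapdh relative to the other genes stayed below 0 in both OE pairs, and in the skin pair it lay at 0.005 without Eno1. In the skin pair 2 of the 10 genes were higher at a fold of 2, against 8 at 1.5-fold. Set against the median of the 15 reference genes in place of the other 9 glycolysis genes, Gapdh was at 0.78 in the skin pair (-0.004 against the other 9), -0.044 in OE-BECs and -0.048 in OE-LECs. In OE-BECs 4 genes were higher at a fold of 1.2 and 0 at a fold of 2, against 1 at 1.5-fold, and in OE-LECs 3 were higher at a fold of 1.2, against 0. Gapdh relative to the other genes in OE-BECs was -0.30, and it was -0.17 against their summed reads, -0.24 against the 6 enzymes from Aldoa to Ldha and -0.24 without Eno1. In OE-LECs it was -0.16, and -0.19 without Eno1. With the trend over GC content and length removed, an alternative chosen after seeing the data, as was leaving out Eno1, the medians of the 10 genes were 0.70 in the skin pair, 0.21 in OE-BECs and 0.07 in OE-LECs. Other scalings moved the median of all genes by at most 0.055 on the log2 scale. Of the log2 ratios of single genes under them, 111 stayed within the interval of that gene and 9 fell outside it.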

Other observations

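Of 6 genes of gluconeogenesis, Fbp1, the fructose bisphosphatase of liver and kidney, had 196 reads in cultured Cont BECs and 54 after overexpression (log2 ratio -1.48, interval -1.94 to -1.04), and 414 and 294 reads in Cont LECs and OE-LECs (log2 ratio -0.72, interval -0.95 to -0.51). Fbp2, the muscle form, was at 384 CPM in Cont LECs and 338 in OE-LECs, against 10.8 and 6.89 in cultured BECs and no more than 2.17 in the skin. Pck2, the mitochondrial carboxykinase, had log2 ratios of -0.78 in OE-BECs and -0.46 in OE-LECs. In the skin only Pck2 of this list reached 100 normalized counts, with a log2 ratio of 0.22.

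Of 10 regulators of glycolysis, 8 had at least 100 normalized counts in each comparison. Klf2, a flow-induced factor, was lower in the library labelled cKO (719 and 588 reads, log2 ratio -0.67, interval -0.83 to -0.51), and Mycn was higher (81 and 189 reads, log2 ratio 0.84, interval 0.46 to 1.24), passing the minimum only there. Epas1 was lower in OE-BECs as well, with 3343 and 1099 reads (log2 ratio -1.22, interval -1.32 to -1.12), and had 846 and 1104 reads in Cont LECs and OE-LECs (log2 ratio 0.15). Of 6 retrocopies of glycolysis genes listed, 3 had rows, and Aldoart1 and Aldoart2 had at most 22 reads in any library.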
